A study of Mus musculus with 4 samples.

Results

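GABAergic neurons with Meis2 are inhibitory neurons that carry many transcripts of Meis2, a homeodomain transcription factor of the TALE class. They were picked here nucleus by nucleus from single-nucleus RNA counts of micropunches of the hypothalamic paraventricular nucleus (PVN), taken from mice. A barcode counted as a member when it had at least 2000 unique molecular identifiers (UMIs, counted transcript molecules), at least 500 genes, at most 5% mitochondrial UMIs and at least 5 of 7 neuronal genes (Snap25, Syt1, Rbfox3, Meg3, Snhg11, Celf4 and Grin2b). It also needed at least 3 UMIs of Gad1, Gad2 and Slc32a1 together and at least 5 UMIs of Meis2. Barcodes with more than 1 UMI of Slc17a6, 5 or more of Sst, 3 or more of Th, 5 or more of Agrp, Npy and Pomc together, or Sox6 at 3 or more with Meis1 at 2 or more were left out. The rule kept 525 of 31109 deposited barcodes, of which 80 and 76 came from the ZT8 libraries and 185 and 184 from the ZT20 libraries (replicates 1 and 2). Since measured values chose the nuclei, levels of the genes in the rule describe the choice and were not tested.

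All 4 libraries came from male C57Bl6 mice that carried no genotype or treatment other than the time of collection. ZT8 falls 8 hours and ZT20 20 hours after the start of the light phase, so that the first is by day and the second by night. The labels give an age of 10 weeks and the series text 10 to 12 weeks, and each library pooled nuclei of 5 micropunched PVNs, purified on a sucrose gradient and captured with the 10x Genomics droplet assay for transcript 3' ends. Nothing in the labels states that both libraries made at a time used different mice, so the p-values measure the spread between libraries, which may be technical.

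MEIS proteins bind DNA together with PBX partners, and Meis2 marks inhibitory lineages of the lateral ganglionic eminence, from which the projection neurons of the striatum and part of the amygdala arise. Gad1 and Gad2 encode the enzymes that make GABA, and Slc32a1 encodes the transporter that loads it into vesicles. Inhibitory neurons within and around the PVN set the tone of its neuroendocrine cells, whose output follows the light and dark cycle.

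The median member held 10072.5 UMIs in ZT8 replicate 1, 11104 in ZT8 replicate 2, 12143 in ZT20 replicate 1 and 11269 in ZT20 replicate 2, and their summed counts came to 891610, 952368, 2347469 and 2189733 UMIs (ZT8 replicates 1 and 2, then ZT20 replicates 1 and 2, the order used throughout). The ZT20 sums were more than double the ZT8 sums, because more nuclei met the rule there. The libraries differed in makeup: neurons with at least 3 UMIs of Sim1 and Otp together, which define PVN neurons, made up 1.04 and 1.13% of neurons at ZT8 and 5.66 and 5.64% at ZT20. Among members only 2 nuclei, both at ZT20, had that many. Pairs of libraries shared 109 barcode sequences, none of them among members. Free RNA in the droplets also differed: oligodendrocyte nuclei, which do not make the hormone, held Oxt at 35.2 counts scaled to 1000000 per summed library (CPM) at ZT8 and 300 CPM at ZT20. The values in oligodendrocyte nuclei therefore stand beside each result that they touch, and their part in a result was not tested.

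Meis2 divided the GABAergic nuclei that met the other terms of the rule into nuclei with none and nuclei with many. Of 2516 such nuclei, 1785 (70.9%) had no Meis2 UMI and 106 had 1. Only 46, 21 and 33 nuclei had 2, 3 and 4 UMIs. The 28 nuclei with 5 UMIs lay just inside the threshold, while 230 had 10 to 19 and 145 had 20 or more. Other thresholds also had members at their edge: 49 members had exactly 3 UMIs of the GABA genes, 175 had the 1 Slc17a6 UMI the rule allows, 6 had 4 Sst UMIs, 3 had 2 Th UMIs and 3 had only 5 of the neuronal genes. The 1891 nuclei with 0 or 1 Meis2 UMI (304, 346, 608 and 633) form the comparison class, called nuclei without Meis2 below, and the 100 nuclei with 2 to 4 were in neither class.

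A long noncoding RNA next to Meis2, which the rule did not use, followed the same division. G630016G05Rik (ENSMUSG00000086308, a lincRNA at chr2:116067225-116085911, plus strand, mm10) starts 1385 bases upstream of Meis2 (ENSMUSG00000027210, chr2:115863064-116065839, minus strand) and is read in the opposite direction. At least 1 of its UMIs was found in 60.0, 57.9, 62.7 and 60.3% of members, against 0.329, 1.16, 1.64 and 0.790% of nuclei without Meis2 and 1.13, 1.12, 1.81 and 1.17% of oligodendrocyte nuclei. Members lay far above both at both times. With each nucleus thinned to 2000 UMIs the shares were 17.5, 23.7, 13.5 and 20.7% in members, 0, 0, 0.329 and 0% in nuclei without Meis2 and 0.903, 0.673, 1.45 and 0.781% in oligodendrocyte nuclei, so nuclei without Meis2 were below the oligodendrocyte share in every library. The share of nuclei with the lncRNA rose with the Meis2 count, from 0.504% at 0 UMIs through 53.6% at 5 UMIs to 68.97% at 20 or more.

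The 250 bases before the annotated RefSeq start of G630016G05Rik are shown because they lie between the starts of the divergent pair (chr2:116066975-116067224, plus strand, GRCm38.p6, RefSeq). Capitals mark CG dinucleotides.
G630016G05Rik: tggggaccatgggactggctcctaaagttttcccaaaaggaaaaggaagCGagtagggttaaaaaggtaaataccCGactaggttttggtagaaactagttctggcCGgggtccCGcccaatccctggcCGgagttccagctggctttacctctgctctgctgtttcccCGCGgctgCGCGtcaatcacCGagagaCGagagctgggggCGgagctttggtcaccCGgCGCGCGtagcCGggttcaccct
This window holds 17 CG dinucleotides, against a median of 6 over all RefSeq promoter windows of that length, and 76.5% of those windows hold fewer. Its GC content is 58.4%, against a median of 52.4%. The letters TGACAG, the core that MEIS proteins recognise, occur on neither strand in this window or in the matching window of Meis2, and occur in 15.9% of 32851 windows. A minus-strand lincRNA between the pair, 2700033N17Rik, overlaps the first 220 bases of G630016G05Rik. Its level was 8.97, 5.25, 5.96 and 7.31 CPM in members and 0, 0.243, 0 and 0 CPM in nuclei without Meis2.

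**Figure D1:**
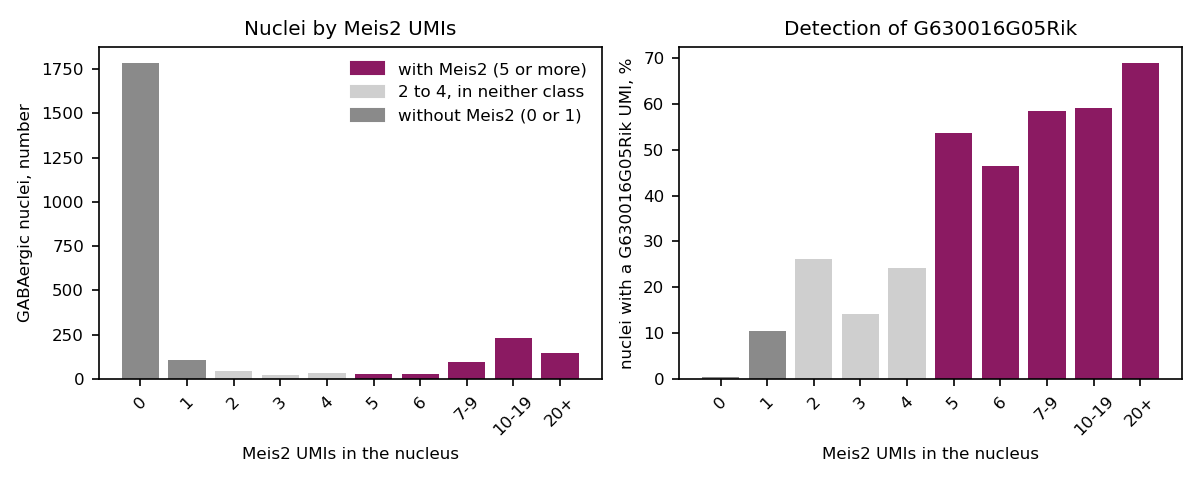
GABAergic nuclei by the number of Meis2 UMIs in the nucleus (x axis), with the number of nuclei on the left and the percentage with at least 1 G630016G05Rik UMI on the right, over all 4 libraries. Bars from 5 UMIs up are members, bars at 0 and 1 are nuclei without Meis2, and detection of the lncRNA goes from 0.504% at 0 to 68.97% at 20 or more Meis2 UMIs.

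In sums per library, Meis2 stood at 1345, 1160, 1343 and 1275 CPM in members and at 1.43, 4.85, 6.35 and 5.66 CPM in nuclei without it, as the rule required. G630016G05Rik stood at 83.0, 90.3, 93.3 and 90.9 CPM against 0.286, 0.970, 1.66 and 0.726 CPM. The level of the lncRNA in members thus varied little among libraries and had no library near the other class. Gad1 was alike in both classes, at 203, 161, 178 and 194 CPM in members and 186, 175, 172 and 190 CPM in nuclei without Meis2. Gad2, at 368, 317, 325 and 354 CPM against 360, 360, 358 and 350 CPM, also overlapped between the classes.

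Other genes that set members apart, described without a test because the nuclei were chosen by measured values, included receptors, a nuclear receptor and a peptide. Pbx3, which encodes a DNA-binding partner of MEIS proteins, stood at 646, 565, 558 and 490 CPM in members and at 135, 125, 161 and 144 CPM in nuclei without Meis2. Meis3, another TALE gene, did not separate that way and was at 13.5, 16.8, 14.5 and 16.0 CPM against 16.6, 19.9, 16.5 and 18.9 CPM. Rarb, a retinoic acid receptor, was at 80.8, 111, 213 and 132 CPM against 20.3, 17.7, 39.4 and 28.2 CPM. It is a gene of striatal projection neurons, and its highest value was in ZT20 replicate 1. Htr1f, a serotonin receptor, was at 289, 271, 193 and 190 CPM against 54.3, 65.5, 43.5 and 44.7 CPM. Nts, the precursor of neurotensin, was at 70.7, 84.0, 50.7 and 53.9 CPM against 9.72, 16.98, 15.9 and 12.8 CPM. Among the 12 genes with the highest ratio in their weakest library, the others were the lincRNAs 6530403H02Rik (at least 5.07 times in every library) and Gm41414 (3.14), the protease gene Adamts3 (3.35), the kinase gene Ptk2b (2.77), the adhesion gene Icam5 (2.76) and the zinc finger gene Tshz1 (2.65).

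**Figure D2:**
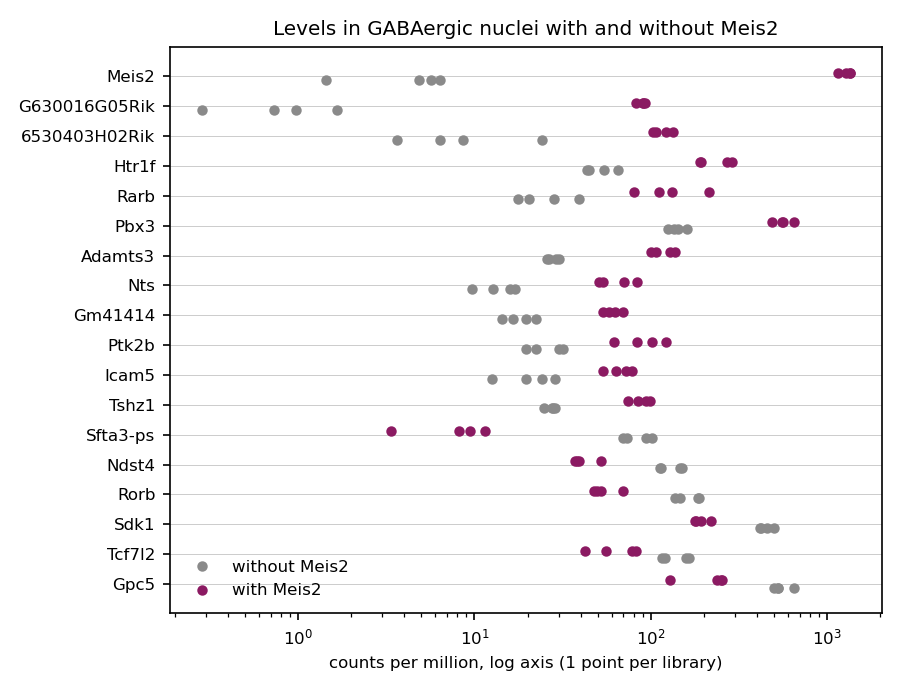
CPM (x axis, log scale) of the genes with the highest and lowest ratio of members to nuclei without Meis2, 1 point per library and class. The points of the classes do not overlap for any of these genes, and Meis2 and G630016G05Rik show the widest gaps.

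Regulators of the medial ganglionic eminence and of hypothalamic inhibitory neurons were near their floor in members. Lhx6 was at 0, 3.15, 2.98 and 3.197 CPM in members and at 23.4, 18.4, 17.8 and 10.6 CPM in nuclei without Meis2. Nkx2-1 was at 3.36, 2.10, 4.26 and 2.74 CPM against 20.6, 15.8, 14.7 and 14.8 CPM, and Lhx8 at 1.12, 6.30, 0.426 and 0 CPM against 36.6, 42.2, 14.2 and 18.0 CPM. All 3 genes were lower in members in every library. Sfta3-ps, a transcribed pseudogene on chromosome 12, was at 3.36, 9.45, 11.5 and 8.22 CPM against 102, 93.6, 69.8 and 73.5 CPM. The other genes with the lowest ratio were Ndst4, Rorb, Sdk1, Tcf7l2 and Gpc5, each at least 1.95 times lower in members in every library. Genes of the distal-less family, which specifies forebrain GABAergic neurons, differed in direction. Dlx1 was at 10.1, 10.5, 17.5 and 15.1 CPM in members and at 21.2, 25.7, 23.0 and 24.0 CPM in the others, lower in every library. Dlx6os1, a noncoding RNA on the opposite strand to Dlx6 whose reads cannot be told apart from it unless strand was used, was at 107, 97.7, 110 and 104 CPM in members and at 86.4, 78.8, 83.1 and 99.0 CPM in the others, higher in every library.

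The members were not of 1 kind. Foxp1, a transcription factor of striatal and many other neurons, had at least 3 UMIs in 48, 40, 118 and 96 members. Zfhx3, a homeobox and zinc finger factor of hypothalamic neurons, reached that level in 39, 35, 103 and 100 members, and Foxp2 in 25, 25, 67 and 52. Penk, the precursor of enkephalin, reached it in only 4, 10, 27 and 25 members, Six3 in 1, 3, 9 and 4 and Pax6 in 3, 2, 3 and 4. A set of genes of striatal projection neurons (Drd1, Drd2, Adora2a, Rgs9 and Ppp1r1b, summed to at least 5 UMIs) marked 1, 5, 23 and 14 members, which is 1.25, 6.58, 12.4 and 7.61%. These nuclei, called striatal-gene nuclei below, were most frequent in ZT20 replicate 1, and the share in ZT20 replicate 2 was close to that of ZT8 replicate 2. Nuclei with at least 3 UMIs of Slc17a8, a vesicular glutamate transporter found in some GABAergic neurons, numbered 6, 9, 5 and 6, or 7.50, 11.8, 2.70 and 3.26%.

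Members made up 20.1% (95% Clopper-Pearson interval 16.3 to 24.4), 17.2% (13.8 to 21.1), 22.2% (19.4 to 25.2) and 21.8% (19.1 to 24.8) of the GABAergic nuclei that met the other terms of the rule. The intervals cover counting error only. The means were 18.7 ± 2.03% at ZT8 and 22.0 ± 0.251% at ZT20 (SD, n = 2 libraries each), a difference of 3.34 percentage points. An exact two-sided permutation test gave p = 0.333, the smallest p that 2 libraries against 2 allow. As a share of all neurons they were 2.37, 1.99, 4.67 and 4.74%, with the same p of 0.333 (exact permutation test). The share among neurons moved together with the Sim1 and Otp share above, and what the punches held and what the cells did cannot be told apart here.

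ZT20 was compared with ZT8 to ask which transcripts of these neurons differed between day and night. Counts summed over members per library were tested with edgeR's quasi-likelihood test, and a gene was called at a Benjamini-Hochberg adjusted p under 0.05. Of 11803 genes tested, 118 (1.00%) were called: 73 were higher at ZT20 (0.618%) and 45 were lower (0.381%). All 118 had non-overlapping libraries, as did 41.9% of all genes tested. In nuclei without Meis2, 117 of the 118 could be tested, and 50 were called in the same direction and 10 in the opposite one. Of all genes tested in that class, 10.6% were called. The 50 include Pde7b, Nnat, Rmst, Zfp804a, Kcnq3, Htr1f, Pdyn and Hsp90b1, and the 10 include Trpm3, Pde1c, Alk, Col25a1 and Tafa1. An unadjusted edgeR p under 0.05 was found for 1365 of the 11803 genes, and such counts in the gene lists below are to be read beside it. The log2 changes below are ZT20 over ZT8 with their standard errors. Since each value is a sum over a mixed set of nuclei, a different mix of nuclei and a different level per nucleus give the same change in it. When the same number of nuclei of each sub-cluster was drawn from every library (54 nuclei per library), 15 of 8932 genes were called. Of the 118 genes, 106 could be tested there, 105 kept their direction and 10 were called. The nuclei drawn are part of the same members, so a kept direction is not independent support. Oxt, Nnat, Nrg1, Rsrp1 and Cntn4 were among the 10, and the other genes named below were not.

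**Figure D3:**
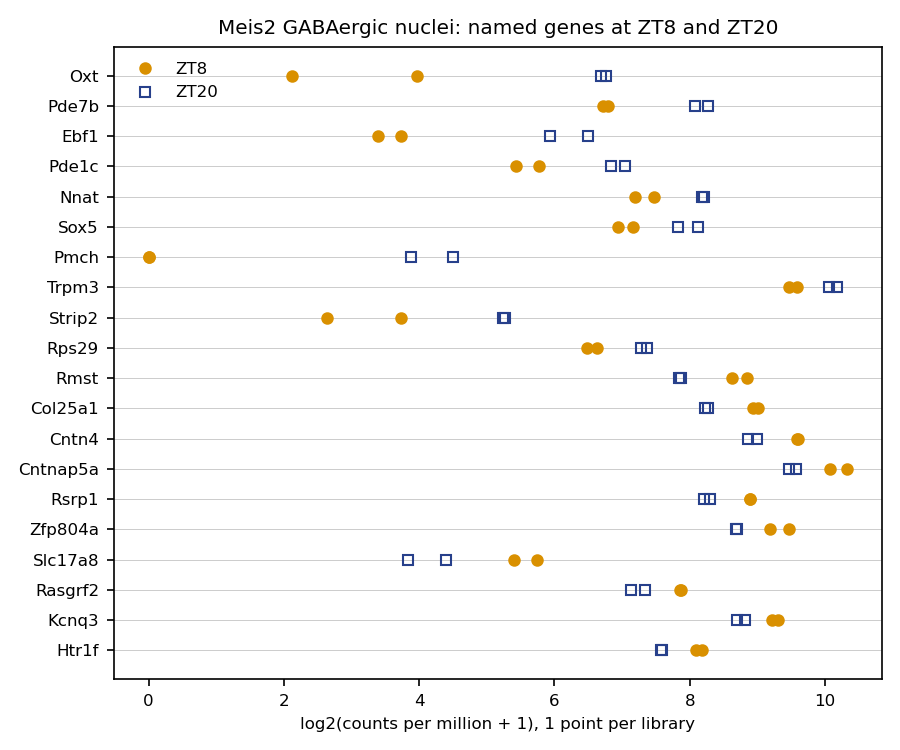
Members' levels of the 20 genes with the smallest p per direction, as log2 of CPM plus 1 (x axis), with 1 point per library at ZT8 (filled circles) and ZT20 (open squares). The points of the 2 times do not overlap for any gene shown, and Pmch is at 0 in both ZT8 libraries.

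Among genes of cyclic nucleotide and dopamine signalling, 5 of 24 tested were higher at ZT20 and none was lower. Pde7b, a phosphodiesterase that breaks down cAMP, stood at 104, 110, 308 and 268 CPM and rose by 1.43 ± 0.12 (edgeR adjusted p = 4.14e-07). Both ZT20 libraries were well above both ZT8 libraries, and oligodendrocyte nuclei held 25.5 and 37.4 CPM at the 2 times. Pde1c, a calcium-activated phosphodiesterase, stood at 53.8, 42.0, 113 and 131 CPM and rose by 1.35 ± 0.16 (adjusted p = 9.93e-05). Its level in oligodendrocyte nuclei, 237 and 246 CPM, was above that in members. Drd2, the inhibitory dopamine receptor of striatopallidal neurons, stood at 7.85, 14.7, 29.0 and 31.1 CPM and rose by 1.40 ± 0.32 (adjusted p = 0.0339). Gng7, a G protein subunit of striatal neurons, rose by 0.83 ± 0.19, from 30.3 and 39.9 to 63.9 and 61.2 CPM. Pde4a, a phosphodiesterase named after its values were seen, rose by 0.66 ± 0.16, from 78.5 and 63.0 to 100 and 123 CPM. Drd1, the stimulating dopamine receptor, was at 25.8, 28.4, 34.1 and 20.6 CPM and was not called (log2 change 0.03 ± 0.28, adjusted p = 0.985).

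Several of these genes were higher in the striatal-gene nuclei, whose share differed between libraries as given above. Those nuclei held 35.1% of the Pde7b UMIs of members, 28.9% of the Pde1c UMIs, 30.1% of the Gng7 UMIs and 54.8% of the Drd2 UMIs. Over all libraries, Pde7b was at 866 CPM in striatal-gene nuclei and 169.7 CPM in the other members, Pde1c at 303 against 78.9 CPM and Drd2, which is in the defining set, at 141 against 12.3 CPM. Ebf1, a transcription factor of developing striatal projection neurons that also gave 1 of the strongest calls, was at 231 against 37.3 CPM. It stood at 12.3, 9.45, 60.1 and 89.1 CPM in all members and rose by 2.77 ± 0.30 (adjusted p = 5.31e-05). The 26 members with the most Ebf1 UMIs held 88.2% of them, and 1, 0, 11 and 11 members had at least 5. With striatal-gene nuclei left out, Pde7b was still called at 1.07 (edgeR adjusted p = 9.54e-06) and Pde1c at 0.94 (0.0101). Ebf1 at 2.33 (0.704), Gng7 at 0.45 (0.453) and Pde4a at 0.61 (0.0507) were not. Drd2 was at 0.35 (0.814), but this follows from the choice of nuclei, since Drd2 UMIs helped define those left out. The call of Pde1c depended on where the limit was set. With members of at least 3 UMIs over the same 5 genes left out (11, 18, 48 and 37 nuclei), Pde1c was at 0.29 (edgeR adjusted p = 0.916), while Pde7b was called at 0.90 (0.00232), and 53 genes were called in all. Single libraries also decided some of these calls: Drd2 lost its call without ZT8 replicate 1 (adjusted p = 0.152) or ZT20 replicate 2 (0.0517), Gng7 without ZT8 replicate 1 (0.147) or ZT20 replicate 1 (0.0878), and Pde4a without ZT8 replicate 2 (0.176) or ZT20 replicate 2 (0.284). In the draw with equal sub-clusters, Pde7b changed by 0.93 (adjusted p = 0.659), Pde1c by 0.05 (0.987) and Drd2 by -0.12 (0.982).

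Among neuropeptide precursors, 4 of 19 tested were higher at ZT20 and 1 was lower. Oxt, the oxytocin precursor, stood at 3.36, 14.7, 102 and 107 CPM in members and rose by 3.50 ± 0.28 (edgeR adjusted p = 2.45e-07). At least 1 UMI was found in 3.75, 17.1, 67.0 and 63.0% of members, and in 7.90, 12.3, 59.1 and 57.8% of oligodendrocyte nuclei, a cell type that does not make the peptide. The median depth was 10072.5, 11104, 12143 and 11269 UMIs in members and 3019, 3129.5, 3190.5 and 3201 in oligodendrocyte nuclei. With each nucleus thinned to 2000 UMIs the shares were 0, 6.58, 18.9 and 16.8% in members and 5.19, 7.85, 44.9 and 44.1% in oligodendrocyte nuclei, so members lay below the oligodendrocyte share in every library. Leaving out ZT8 replicate 1 gave a change of 2.84 and leaving out ZT8 replicate 2 gave 4.93. Pmch, the precursor of melanin-concentrating hormone, was at 0 and 0 CPM at ZT8 and at 21.7 and 13.7 CPM at ZT20. Against a floor of 3 counts over both ZT8 libraries it was at least 10.97-fold higher at ZT20, and oligodendrocyte nuclei went from 0 to 43.8 CPM. Avp, the vasopressin precursor, was at 1.12, 4.20, 12.4 and 16.9 CPM (2.40 ± 0.56, adjusted p = 0.0386), with 3.16 and 35.9 CPM in oligodendrocyte nuclei. Leaving out any 1 of ZT8 replicate 1, ZT20 replicate 1 or ZT20 replicate 2 ended the Avp call (adjusted p of 0.130, 0.0697 and 0.434), and the change was 1.79 without ZT8 replicate 1.

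Of the other 2 peptide genes called, only Pdyn was higher in members than in oligodendrocyte nuclei. Pdyn, the dynorphin precursor, stood at 6.73, 1.05, 23.4 and 25.1 CPM and rose by 2.65 ± 0.46 (adjusted p = 0.00474), while oligodendrocyte nuclei held 0.952 and 7.94 CPM. Its UMIs were found in 4, 1, 26 and 34 members. The change was 4.45 without ZT8 replicate 1 and 1.84 without ZT8 replicate 2. Cck, the cholecystokinin precursor and also named after its values were seen, stood at 53.8, 52.5, 24.7 and 32.4 CPM and fell by 0.89 on the log2 scale (SE 0.21, adjusted p = 0.0386), with 135 and 73.6 CPM in oligodendrocyte nuclei. Without ZT20 replicate 1 its adjusted p was 0.227. Penk, at 46.6 and 93.1 CPM on average at ZT8 and ZT20, was not called (0.99 ± 0.23, adjusted p = 0.0591), nor was Nts (-0.56 ± 0.16). The median log2 change of the 19 precursors was 0.46, against -0.0021 over all genes tested.

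In the synaptic adhesion list, 3 of 25 tested were lower and none was higher. Cntn4, a contactin of axons and synapses, stood at 774, 768, 507 and 466 CPM and fell by 0.66 on the log2 scale (SE 0.09, edgeR adjusted p = 0.000242). Cntnap5a, a neurexin-like cell adhesion protein, stood at 1282, 1078, 756 and 709 CPM and fell by 0.68 (SE 0.09, adjusted p = 0.000304). Oligodendrocyte nuclei had Cntn4 at 83.9 (ZT8) and 77.9 (ZT20) CPM and Cntnap5a at 27.4 and 26.3 CPM, and the ZT20 libraries lay below the lower ZT8 library by more than the spread within either time. Cntn5, another contactin, fell by 0.39 (SE 0.09, adjusted p = 0.0427), and lost its call without ZT8 replicate 1 (0.0557) or ZT20 replicate 2 (0.301). Neurexin and neuroligin genes were not called, for example Nrxn3 (-0.07 ± 0.08) and Nlgn1 (0.04 ± 0.08). Col25a1, a brain-specific membrane collagen, stood at 515, 488, 298 and 308 CPM and fell by 0.72 (SE 0.09, adjusted p = 0.000174). Cntn4 was also called with equal sub-clusters (-0.68, adjusted p = 0.0291), where Col25a1 (-0.78, 0.0803) and Cntnap5a (-0.48, 0.257) were not.

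Of 26 potassium channel genes, 1 was higher and 1 lower. Kcnq3, a subunit of the M-current that restrains repetitive firing, stood at 594, 632, 449 and 416 CPM and fell by 0.50 (SE 0.09, adjusted p = 0.00625). Its level in oligodendrocyte nuclei was higher, 935 and 851 CPM, and without ZT20 replicate 2 its adjusted p was 0.0763. Kcnip1, a calcium-binding partner of A-type channels, stood at 117, 101, 164 and 168 CPM and rose by 0.62 ± 0.12 (adjusted p = 0.0134), with an adjusted p of 0.0568 without ZT8 replicate 2. None of 21 sodium and calcium channel genes was called by edgeR or DESeq2, and 1 had an unadjusted p under 0.05. DESeq2 gave an adjusted p to only 1069 genes, so here and below it could not call a gene without one. Trpm3, a heat-activated and steroid-activated cation channel gene, stood at 709, 765, 1157 and 1061 CPM and rose by 0.59 ± 0.09 (adjusted p = 0.000807). Among 27 axon guidance genes, Epha4, an ephrin receptor, rose by 0.78 ± 0.13 (adjusted p = 0.00364), from 84.1 and 89.3 to 138 and 159 CPM. Dcc, the netrin receptor, fell by 0.35 (SE 0.08, adjusted p = 0.0396), from 2002 and 2212 to 1638 and 1651 CPM, and was not called without ZT20 replicate 1 (0.0839) or ZT20 replicate 2 (0.0883). Nrg1, a neuregulin that binds ErbB4, rose by 0.49 ± 0.10 (adjusted p = 0.0131), from 1720 and 1380 to 2216 and 2111 CPM. It was called with equal sub-clusters (0.66, adjusted p = 0.0127) but not without striatal-gene nuclei (0.36, 0.211).

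Other regulators and signalling genes lay in both directions. Rmst, a neuronal long noncoding RNA and the only one of 10 nuclear noncoding RNAs to be called, stood at 461, 395, 229 and 233 CPM and fell by 0.88 (SE 0.10, adjusted p = 5.31e-05). Slc17a8 stood at 41.5, 52.5, 13.2 and 20.1 CPM and fell by 1.501 (SE 0.25, adjusted p = 0.00362). The few Slc17a8 nuclei counted above held 80.2% of its UMIs, a share that follows from choosing them by this gene. In those nuclei Rmst was at 941 CPM, against 252 CPM in the other members, and with them left out Rmst was still lower (-0.64, adjusted p = 0.00167). With equal sub-clusters neither gene was called by edgeR: Rmst was at -0.45 (adjusted p = 0.464) and Slc17a8 at -0.36 (0.825). Sox5, a transcription factor of neuron differentiation, stood at 121, 142, 226 and 279 CPM and rose by 0.94 ± 0.13 (adjusted p = 0.000242), but an antisense gene inside it, Sox5os4, was also called, and whether reads were counted by strand is not given in the sources used here. Nnat, an imprinted gene for a small membrane protein, stood at 176, 145, 294 and 290 CPM and rose by 0.87 ± 0.11 (adjusted p = 0.000174), while oligodendrocyte nuclei went from 92.0 to 262 CPM. It was called with equal sub-clusters too (0.97, adjusted p = 0.0146). Plagl1, another imprinted gene and a zinc finger factor, rose by 1.74 ± 0.41 (adjusted p = 0.0402), with no call without ZT8 replicate 2 (0.208) or ZT20 replicate 2 (0.237).

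Strip2, a component of phosphatase complexes, stood at 12.3, 5.25, 36.6 and 37.4 CPM and rose by 2.09 ± 0.33 (adjusted p = 0.00158). Its change was 2.81 without ZT8 replicate 1. Rsrp1, a splicing-related protein gene, stood at 476, 474, 294 and 315 CPM and fell by 0.64 (SE 0.09, adjusted p = 0.000634), and was called with equal sub-clusters (-0.73, 0.0152). Its level in oligodendrocyte nuclei was 629 and 619 CPM. Zfp804a, a zinc finger gene, fell by 0.64 (SE 0.10), from 581 and 706 to 413 and 411 CPM. Rasgrf2, an activator of Ras, fell by 0.62 (SE 0.11), from 233 and 230 to 161 and 140 CPM, and Htr1f fell by 0.54 (SE 0.10), from the day values to the night values given above. Rasgrf2 and Htr1f were not called without ZT20 replicate 2 (adjusted p of 0.0883 and 0.0570). They were also not called by edgeR with equal sub-clusters, where Rasgrf2 was at -0.43 (adjusted p = 0.464) and Htr1f at -0.11 (0.886). Tcf7l2, a Wnt effector that marks thalamic neurons, fell by 0.72 (SE 0.17, adjusted p = 0.0427), with 310 and 343 CPM in oligodendrocyte nuclei and adjusted p of 0.0745 without ZT8 replicate 2 and 0.328 without ZT20 replicate 1. Vipr2, a receptor for vasoactive intestinal peptide, rose by 3.76 ± 0.65 (adjusted p = 0.00425), but its 73 UMIs lay in 22 nuclei, with 1, 1, 10 and 10 nuclei in the 4 libraries, and without ZT20 replicate 1 its adjusted p was 0.117.

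Endoplasmic reticulum chaperones of the unfolded protein response were higher at ZT20 in 2 of 17 genes tested, and none was lower. Hsp90b1, which encodes the chaperone GRP94, stood at 155, 146, 236 and 222 CPM and rose by 0.61 ± 0.11 (edgeR adjusted p = 0.00600). Hspa5, which encodes the chaperone BiP, stood at 97.6, 116, 181 and 152 CPM and rose by 0.65 ± 0.13 (adjusted p = 0.0157), and without ZT20 replicate 1 its adjusted p was 0.168. The night libraries were above the day libraries for both genes. Oligodendrocyte nuclei went from 181 to 230 CPM for Hsp90b1 and from 87.2 to 151 CPM for Hspa5. Calr (0.50 ± 0.13, adjusted p = 0.0609) and Pdia3 (0.48 ± 0.14) were not called, and the median of the 17 genes was 0.29, against -0.0021 over all genes.

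Stress in the endoplasmic reticulum acts on these genes through a promoter element, which was looked up to show where the list shares sequence. The letters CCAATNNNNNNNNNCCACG, on either strand, occur in 37 of 32851 RefSeq promoter windows of 250 bases (0.113%) and in those of 7 of the 18 list genes with a window. A stretch of 30 bases around the element is shown for the 2 genes called and for 2 that were not, in each gene's own direction, with the element in capitals (GRCm38.p6, RefSeq).
Hspa5, chr2:34772020-34772049, plus strand: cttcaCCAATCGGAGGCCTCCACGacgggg
Hsp90b1, chr10:86705632-86705661, minus strand: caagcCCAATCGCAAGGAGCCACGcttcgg
Pdia6, chr12:17266486-17266515, plus strand: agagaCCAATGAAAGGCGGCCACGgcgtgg
Canx, chr11:50325794-50325823, minus strand: attgaCCAATCACCACGCTCCACGaagaat
The Hspa5 stretch lies before the RefSeq start but inside the GENCODE gene, which starts at chr2:34771970, and overlaps an untranslated region there. Hsp90b1 holds a further match on the other strand, and Calr, Creld2 and Dnajc3 also hold one. Both called genes of the list hold the element, and so do genes with small changes, such as Canx (0.12 ± 0.11) and Dnajc3 (0.14 ± 0.19). Whether the element has a part in the changes was not tested.

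Of 22 ribosomal protein genes, 1 was higher and none lower: Rps24 stood at 72.9, 71.4, 115 and 118 CPM and rose by 0.69 ± 0.14 (adjusted p = 0.0134). Rps29, outside that list, stood at 97.6, 88.2, 154 and 163 CPM and rose by 0.78 ± 0.13 (adjusted p = 0.00226). Rpl14 (0.91 ± 0.20), Rpl37 (0.65 ± 0.13), Rpl38 (0.60 ± 0.13) and Rpl6 (0.57 ± 0.14), also outside the list, were called higher too. Their edgeR adjusted p were 0.0245, 0.0157, 0.0261 and 0.0446. Of the list, 19 of 22 had a positive change, with a median of 0.36. Ribosomal protein messages sit largely in the cytoplasm, and oligodendrocyte nuclei went from 226 to 392 CPM for Rps29 and from 188 to 257 CPM for Rps24.

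No core clock gene was called in members. Of 24 tested with edgeR, 2 had an unadjusted p under 0.05 (Bhlhe40 and Csnk1d), as did 1365 of all 11803 genes tested. DESeq2 called no clock gene, but it gave an adjusted p to only 1069 genes and could not call the rest. Of the 24, 10 had a positive change and the median was -0.10. Bhlhe40, a repressor of the clock, stood at 21.3, 19.95, 11.9 and 10.0 CPM, with a change of -0.89 ± 0.32 (adjusted p = 0.254). Csnk1d, a kinase that marks PER proteins, stood at 42.6, 49.4, 58.8 and 63.5 CPM (0.41 ± 0.18, adjusted p = 0.370). Per2, a core repressor, stood at 14.6, 21.0, 25.6 and 26.5 CPM (0.54 ± 0.28, adjusted p = 0.488), and its libraries did not overlap. Per1 stood at 29.2, 25.2, 24.3 and 24.2 CPM (-0.16 ± 0.25). Nr1d1, which encodes REV-ERB alpha, stood at 16.8, 15.8, 10.2 and 9.13 CPM (-0.74 ± 0.36, adjusted p = 0.434). Nr1d2 stood at 96.5, 89.3, 82.2 and 71.2 CPM (-0.27 ± 0.15). Arntl, which encodes BMAL1, stood at 40.4, 46.2, 50.7 and 52.1 CPM (0.25 ± 0.19) and Clock at 141, 154, 141 and 130 CPM (-0.12 ± 0.12). Cry1 (0.18 ± 0.35), Cry2 (-0.29 ± 0.17), Per3 (-0.26 ± 0.20) and the output factor Dbp (0.46 ± 0.30) also missed the threshold.

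**Figure D4:**
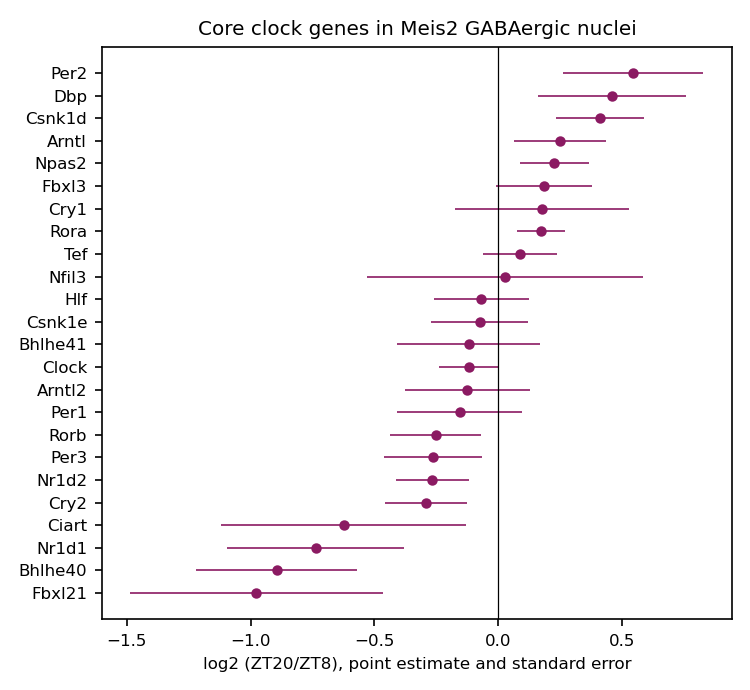
Log2 change from ZT8 to ZT20 (x axis) of the 24 core clock genes in members, with points for the estimates and bars for 1 standard error. No gene passed the threshold, and Per2 and Dbp have the highest and Bhlhe40 and Fbxl21 the lowest estimates.

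Some clock genes rested on few UMIs. Per2 had 151 UMIs over all members, Nr1d1 74 and Dbp 131. In nuclei without Meis2, which carry several times as many UMIs and share the libraries, edgeR called 1610 of 15211 genes (10.6%). Among them were the clock genes Rorb (0.39, adjusted p = 5.84e-05), Arntl (0.46, 0.00267), Nr1d2 (-0.41, 0.000418), Nr1d1 (-0.65, 0.0419) and Dbp (-0.53, 0.0470). In members Rorb was at -0.25 ± 0.18 (adjusted p = 0.648). Whether depth accounts for the difference in calls was not tested. The class-by-time test, which asks whether the change differs between the classes, called no clock gene. Its adjusted p was 0.194 for Rorb (difference -0.64 ± 0.18), 0.889 for Arntl, 0.911 for Nr1d2, 0.984 for Nr1d1 and 0.361 for Dbp.

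Several other gene groups, GABA signalling among them, had no call by edgeR or DESeq2, and DESeq2 could call only genes to which it gave an adjusted p. Over all genes tested, 1365 of 11803 had an unadjusted edgeR p under 0.05. Of 21 genes of GABA synthesis, receptors and uptake, 3 had an unadjusted p under 0.05. Of 21 glutamate receptor genes, 6 had an unadjusted p under 0.05, with Grin2a closest (-0.36 ± 0.09, adjusted p = 0.0650). Of 7 TALE genes outside the rule, 1 had an unadjusted p under 0.05, and Pbx3 changed by -0.20 ± 0.10. Of 15 immediate early genes, which report recent activity, 3 had an unadjusted p under 0.05, and the lowest were Arc (26.1 to 11.5 CPM, -1.17 ± 0.31, adjusted p = 0.0737) and Fos (21.4 to 10.4 CPM, -1.02 ± 0.37). Of 15 receptors for feeding and stress signals, 2 had an unadjusted p under 0.05, and of 12 glucocorticoid-responsive genes also 2.

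Glial transcripts were present in members at both times. The 10 oligodendrocyte genes summed to 979, 608, 597 and 551 CPM in members, highest in ZT8 replicate 1, none of 10 was called by edgeR or DESeq2, 5 had an unadjusted p under 0.05 and all 10 changes were negative (median -0.46). The 5 microglial genes tested summed, over the whole list, to 113, 122, 94.1 and 136 CPM, and 1 was lower: Inpp5d, a phosphatase of blood and immune cells, at 16.8, 9.45, 1.70 and 2.28 CPM (-2.66 ± 0.57, adjusted p = 0.0211). Its 33 UMIs lay in 12 nuclei, and its call was lost without ZT8 replicate 1 (0.238), ZT20 replicate 1 (0.328) or ZT20 replicate 2 (0.265). No astrocyte gene was called by edgeR or DESeq2 among 6 tested, and none had an unadjusted p under 0.05. For these glial lists too, DESeq2 could call only genes to which it gave an adjusted p. With the 9, 17, 26 and 18 members that held at least 10 UMIs of 12 glial, microglial and vascular genes left out, 109 genes were called, of which 80 were among the 118. Of the 118 genes, 56 had at least 4 times the level of oligodendrocyte nuclei at the time where they were higher, as did 1546 of all 11803 genes tested. Taking each gene at its higher time favours genes with large changes, so these counts describe levels and are not a test.

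The changes of 67 of 14109 genes (0.475%) differed between members and nuclei without Meis2 by the class-by-time term in edgeR, where 36 differences (the change in members minus that in the others) were positive (0.255%) and 31 negative (0.220%). Trpm3 rose in members as given above and fell in nuclei without Meis2, by 0.39 (SE 0.05), and the difference was 0.99 ± 0.09 (adjusted p = 1.54e-05). Pde1c fell there by 0.39 (SE 0.09), and the difference was 1.74 ± 0.18 (adjusted p = 4.81e-05). Col25a1 showed the opposite: it rose by 0.40 ± 0.06 in nuclei without Meis2, from 186 to 245 CPM on average, and the difference was -1.11 ± 0.11 (adjusted p = 1.54e-05). Tafa1, a secreted neuronal protein gene, fell in members from 385 and 439 to 277 and 313 CPM and rose in the others by 0.49 ± 0.06, a difference of -0.97 ± 0.11 (adjusted p = 9.86e-05). Dach2, a transcription cofactor on the X chromosome, stood at 58.3, 30.5, 20.9 and 11.9 CPM in members and rose by 1.43 ± 0.25 in the others, a difference of -2.83 ± 0.31 (adjusted p = 6.47e-05). Its own change in members missed the threshold (adjusted p = 0.0510).

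Alk, a receptor tyrosine kinase gene, rose in members by 0.63 ± 0.12 and fell in the others by 0.40 (SE 0.06), a difference of 1.04 ± 0.14 (adjusted p = 0.000793). Adarb2, a gene of some cortical and hypothalamic interneurons, was at 587 CPM on average at both times in members and fell in the others by 0.77 (SE 0.05), from 998 to 585 CPM, a difference of 0.78 ± 0.11 (adjusted p = 0.00112). Sox5 differed by 0.82 ± 0.13 (0.00387), Cntnap5a by -0.73 ± 0.09 (0.000572) and Nxph1, a ligand of neurexins, by -0.74 ± 0.10 (0.00110). The calls of these 5 genes depended on ZT20 replicate 2. Without it the difference was 0.91 for Alk (adjusted p = 0.0714), 0.69 for Adarb2 (0.129), 0.71 for Sox5 (0.177), -0.72 for Cntnap5a (0.0566) and -0.64 for Nxph1 (0.129), of the same sign as with all libraries, and 11 genes were called in all. Without ZT20 replicate 1, 29 genes were called, and without ZT8 replicate 1, 136. For Oxt (0.11 ± 0.41, adjusted p = 0.975), Rps29 (0.04 ± 0.15, 0.974), Hspa5 (0.05 ± 0.15, 0.967) and Rsrp1 (0.08 ± 0.10, 0.914) the same test did not find a difference between the classes. The model could not be set against the Sox6 and Meis1 GABAergic nuclei, which numbered only 10 in each ZT20 library.

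**Figure D5:**
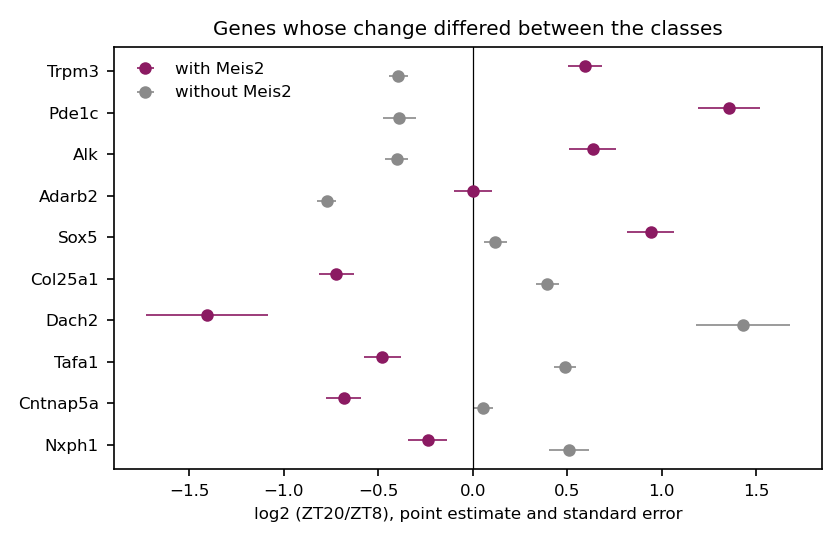
Log2 change from ZT8 to ZT20 (x axis) in members and in nuclei without Meis2 for the 10 named genes whose change differed between the classes, with bars for 1 standard error. Trpm3, Pde1c and Alk lie above 0 in members and below 0 in the other class, and Col25a1, Dach2 and Tafa1 the other way round.

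Narrower sets of members gave fewer calls. In members with at least 3 Foxp1 UMIs, 34 of 10264 genes were called (0.331%), 21 higher and 13 lower at ZT20, and 28 of them were among the 118. In members with at least 3 Zfhx3 UMIs, 72 of 10036 genes were called (0.717%), 37 higher and 35 lower, and 42 of them were among the 118. The sets share nuclei. In the Foxp1 set, Pde7b changed by 1.57 (edgeR adjusted p = 8.84e-05), Pde1c by 1.56 (0.00274), Cntn4 by -0.69 (0.00797) and Col25a1 by -0.85 (0.00281). In the Zfhx3 set, Pde7b changed by 1.16 (0.000197), Sox5 by 1.53 (1.2e-06), Trpm3 by 0.75 (0.00163) and Col25a1 by -0.84 (0.000345). Htr1f changed by -0.41 (0.243) in the Foxp1 set and by 0.01 (0.994) in the Zfhx3 set. Leaving out 1 library moved these counts by more than 1.5 times: the Foxp1 count was 154 and 209 without ZT8 replicates 1 and 2, 53 and 55 without the ZT20 replicates in the same order, and the Zfhx3 count was 177, 186, 51 and 24.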

How the data were processed

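The authors deposited 1 matrix per library of unnormalized UMI counts, made with Cell Ranger 7.0.0 per the file headers. The submitters' processing notes name STAR 2.6 and mm10. Handling of intronic reads and strand is not given in the sources used here. Groups and replicate numbers follow the titles of the labels.

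The nuclei and the 32 gene lists were chosen with earlier results of these data known. Nuclei were selected with Python 3.11.15 and numpy 2.4.6. Counts were summed per library and tested in R 4.3.3 with edgeR 4.0.16 (filterByExpr, TMM, robust quasi-likelihood F tests, two-sided, Benjamini-Hochberg over all genes tested). The 19 genes of the rule and mitochondrial genes stayed in the fit and were not called. CPM are counts scaled to 1000000 UMIs of the summed nuclei, without TMM factors (0.994 to 1.01). The difference between classes used library, class and class by time. Shares were tested by exact permutation with scipy 1.17.1.

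Named genes were all core clock genes, up to 10 called genes per direction with the smallest p, up to 4 called genes per list, and 5 per direction for the class-by-time term, passing over Gm, Rik and clone names. For the class description they were the 12 highest and 6 lowest by the least extreme ratio among libraries, with at least 50 CPM. Cck and Pde4a fell outside this rule. Doublets were scored with Scrublet in scanpy 1.11.5. The nuclei with the highest scores stayed in and were left out as an alternative, at 0.8% per 1000 barcodes (2, 1, 13 and 15 members). Oligodendrocyte nuclei (443, 446, 276 and 256) had at least 20 UMIs of 5 myelin genes, under 5 neuronal genes and no GABA gene UMI. The sub-clusters drawn equally numbered 13 and were made without clock, immediate early, heat shock and mitochondrial genes.

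Replicates of a time differed by a chi-square per gene of 1.61 (ZT8) and 1.49 (ZT20), so neither was a copy of the other. The value between times was 2.77, but it used the summed libraries of each time and another set of genes. It is therefore not on the same scale. The test was tested on simulated data of this comparison with 11832 genes: it recovered 66% of 100 genes changed 2-fold and 93% of 100 changed 4-fold, with 15 false calls. Intervals cover counting error only. Positions come from GENCODE M21 on mm10 and sequences from RefSeq tables of GRCm38.p6. Alternatives used DESeq2 1.42.0, other thresholds and omission of each library. Leaving out striatal-gene, Slc17a8 or glia-rich nuclei and the oligodendrocyte limit were chosen after seeing the data. Some genes are not reported here.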

Additional observations from a re-analysis of the deposited data

Results flagged for a closer look

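The change from ZT8 to ZT20 differed between GABAergic nuclei with and without Meis2 for 67 genes, by the class-by-time term in edgeR. The difference (the change in members minus that in the others) was positive for Trpm3 (0.99 on the log2 scale), Pde1c (1.74), Alk (1.04), Adarb2 (0.78) and Sox5 (0.82), and negative for Col25a1 (-1.11), Dach2 (-2.83), Tafa1 (-0.97), Cntnap5a (-0.73) and Nxph1 (-0.74). Both classes came from the same 4 libraries, and each class holds several kinds of neurons whose mix in the punches was not held constant.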

How the results depend on the processing

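Of 118 genes called, each that could be tested (116 to 118) kept its direction under other size factors (123 called), nuclei of at least 5000 UMIs (126), no doublets (100), no striatal-gene (110) or Slc17a8 nuclei (117) and no filter (322 of 21607 genes). These settings reuse most or all of the same nuclei, so a kept direction is not independent support. Leaving out members of at least 3 striatal-gene UMIs left 53 calls, and 113 of 114 main calls kept their direction. DESeq2 called 34 of the 1069 genes to which it gave an adjusted p. The limit of 4 times the oligodendrocyte level kept 56 of the main calls with their main adjusted p, so it was no separate fit. A Meis2 threshold of 10 UMIs left 39 calls, a GABA threshold of 6 left 57 and equal sub-clusters 15. At that Meis2 threshold 117 of 118 main calls kept their direction, and 116 of 117 did with glia-rich members left out. Members with under 2 glial UMIs (9, 7, 31 and 32 nuclei) gave 0 calls in edgeR, with 344 of 4635 genes at an unadjusted p under 0.05. Of the 90 main calls tested there, 81 kept their direction. Trpm3 was at -0.43, Htr1f at 0.63, Tcf7l2 at 1.52 and Kcnip1 at -0.36 in that set, and the cause was not tested. DESeq2 was not run on these members. Drd2 was at -0.12 with equal sub-clusters.

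Leaving out 1 library gave 103 to 284 calls in members, 11 to 136 for the class-by-time term, 53 to 209 in the Foxp1 set and 24 to 186 in the Zfhx3 set, and 16 of the 38 named called genes lost their call at least once. The share difference ranged from 1.90 to 4.77 points over its alternatives. With the replicate number as a block (replicate block), 81 genes were called, but the labels give no shared mice or day, and deviations of same-numbered libraries did not correlate (-0.00834 over 11832 genes), so the numbers were not read as pairs. With 80 and 76 nuclei at ZT8, genes under about 20 CPM rest on few UMIs, and a missed call there does not show that a gene did not change.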

Other observations

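The members with at least 3 Slc17a8 UMIs (26 in all) carried Tshz3, a zinc finger factor, at 228 CPM, against 22.8 CPM in the other members, and Rmst at 941 against 252 CPM. Ebf1 and Drd2 were at 0 CPM in them. Drd1 was at 51.1 against 26.1 CPM and Htr1f at 261 against 215 CPM. These nuclei were chosen by Slc17a8 after the data were seen, so the values describe them without a test.

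With equal sub-clusters, 5 of the 15 genes called were not among the 118. They were Il1rapl2 (-1.53, adjusted p = 1.04e-05), an adhesion gene of synapses, Gpc5 (1.17, 0.00218), a heparan sulphate proteoglycan, Pld5 (0.95, 0.00720), Zfhx3 (0.72, 0.0115) and Tac2 (3.47, 0.0408), the neurokinin B precursor. They rest on 54 nuclei per library and were named after their values were seen.

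Genes of zona incerta and reticular thalamic neurons had a median change of -0.46 over 9 tested, with no call by edgeR or DESeq2 and 2 at an unadjusted p under 0.05. DESeq2 could call only genes to which it gave an adjusted p. Pax6 was at 26.8 CPM at ZT8 and 13.6 CPM at ZT20 on average (-0.97 ± 0.33, adjusted p = 0.203).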
